A study of Mus musculus with 6 samples.

Results

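The Polycomb group comprises chromatin repressors that work in 2 kinds of complexes, and the transcript levels of 36 genes encoding their subunits and close partners were followed in mouse embryonic stem (ES) cells with and without intact Morc3. The 36 genes were chosen by symbol, out of 24054 genes counted, and each symbol had a row of its own. The RNA-seq data comprise 6 libraries. There were 3 Morc3 knock-out (ko) libraries of the cell lines KO27-1, KO27-2 and KO27-3, called clones 1, 2 and 3 here, since the methods of the study describe ko lines as isolated clones made with Cas9. The other 3 libraries came from wild-type ES cells labelled WT26, as the cultures p42, p43 and p56. Both groups grew without feeder cells on gelatin in serum and LIF, a cytokine that maintains the pluripotent state. The methods describe no treatment of the cultures used for RNA. Making the ko lines involved transfection, selection with puromycin and isolation of clones, steps not described for the wild-type cells. The wild-type cultures carry the name of 1 line and the ko libraries those of 3 lines, so that the spread within wild type covers differences between cultures only. Any effect that the ko clones share from the way they were made cannot be told apart from a ko effect. The meaning of the letter p in the culture names was not given in the labels. Library values are listed in the order of clones 1, 2 and 3 for ko and p42, p43 and p56 for wild type throughout.

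Polycomb repressive complex PRC2 places methyl groups on lysine 27 of histone H3 (H3K27me3), and PRC1 attaches ubiquitin to lysine 119 of histone H2A. Every PRC1 complex is built on a RING protein (Ring1 or Rnf2) paired with a PCGF protein, and the PCGF partner decides the subtype. Canonical PRC1 contains a CBX protein that reads H3K27me3 and a PHC protein that clusters target loci. Variant PRC1 contains Rybp or Yaf2 in place of CBX. PRC1.1 combines Pcgf1 with the CpG island reader Kdm2b and with Bcor or Bcorl1. PRC1.6 combines Pcgf6 with L3mbtl2, E2f6 and the DNA-binding pair Mga and Max, and is known in ES cells for keeping genes of the germ line silent. Polycomb complexes in ES cells are known for occupying CpG-rich promoters of developmental regulators.

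The libraries held between 10740618 and 14123131 sense-strand gene counts, and 12222 genes passed the filter on low counts and were tested. Expression is given as CPM, the counts of a library divided by its TMM-adjusted size in units of 1e+06 counts, so that 1 count is worth between 0.0700 and 0.0924 CPM. The labels were checked by the targeted gene. Morc3 reached 77.8, 138 and 135 CPM in the ko libraries and 277, 272 and 302 CPM in wild type, so every ko library lay below every wild-type library and transcripts were still present. It was called lower in ko by edgeR (log2 fold change -1.28, SE 0.16, adjusted p 8.4e-04), and a robust fit no longer called it at an adjusted p of 0.0184, the highest over the settings tried, where the lowest was 2.6e-07. Identity as ES cells was checked with 10 markers, all of them tested, whose summed level was 6599 to 6679 CPM in ko and 6153 to 6192 CPM in wild type, and 0 of the 10 were called by edgeR or limma-voom. At an unadjusted p under 0.05, edgeR found 2 of the 10, both higher in ko, against 14.3% of all tested genes. DESeq2 called Dppa5a higher in ko, where it called 254 of 14125 genes. Dppa5a had 1370, 1390 and 1347 CPM in ko and 1112, 1090 and 848 CPM in wild type, with p56 the lowest. Its log2 fold change by edgeR was 0.43 (adjusted p 0.0231) and became 0.32 without p56 (adjusted p 9.6e-04). Of 8 fibroblast markers, Dcn and Postn had no count in any library and the list summed to 5.73 to 6.08 CPM in ko and 9.20 to 10.5 CPM in wild type. Thy1 was the single fibroblast marker with enough counts to be tested and was called lower in ko, with a log2 fold change of -0.86 and an edgeR adjusted p of 0.0064. The other lists of 6 to 8 markers summed to 1.48 to 3.57 CPM for primitive endoderm, 12.4 to 20.8 CPM for trophectoderm and 240.0 to 291 CPM for primed epiblast and germ layers, of which Dnmt3b held most. None of their tested genes was called by edgeR, DESeq2 or limma-voom with all libraries. Of the 4 tested primed epiblast and germ layer markers, 2 had an unadjusted p under 0.05 by edgeR, both higher in ko, against 14.3% of all tested genes. Otx2 had the smallest p of that list (log2 fold change 0.47, edgeR adjusted p 0.0988) and was called by edgeR without p56 (adjusted p 0.0085).

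To see how much of each complex the ES cells express, transcript levels were divided by gene length (CPM per kb of merged exons), which allows genes to be compared with each other. On this scale the levels of the 36 genes spanned 944-fold. Rbbp7, a histone-binding subunit of PRC2 that other chromatin complexes also use, was the highest with a mean of 208 CPM per kb over the 6 libraries. Eed, which binds H3K27me3 within PRC2, followed with 177 CPM per kb, Usp7, a deubiquitinase found with PRC1.1, with 146 CPM per kb, and Mtf2, which directs PRC2 to CpG islands, with 132 CPM per kb. The other PRC2 core genes Rbbp4, Suz12 and Ezh2 had 103, 69.2 and 54.9 CPM per kb, and Jarid2, a targeting subunit, had 84.3 CPM per kb. Among PRC1 genes, the catalytic Rnf2 had 79.8 CPM per kb, followed by L3mbtl2 with 60.4 and Pcgf6 with 50.8 CPM per kb, both of PRC1.6. The lowest levels were those of Cbx8, a reader of H3K27me3, with 0.221 CPM per kb, of Bcorl1 with 0.315 CPM per kb and of Scmh1, a partner of canonical PRC1, with 0.554 CPM per kb. The ko and wild-type libraries lay close together on this scale for nearly every gene.

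**Figure D1:**
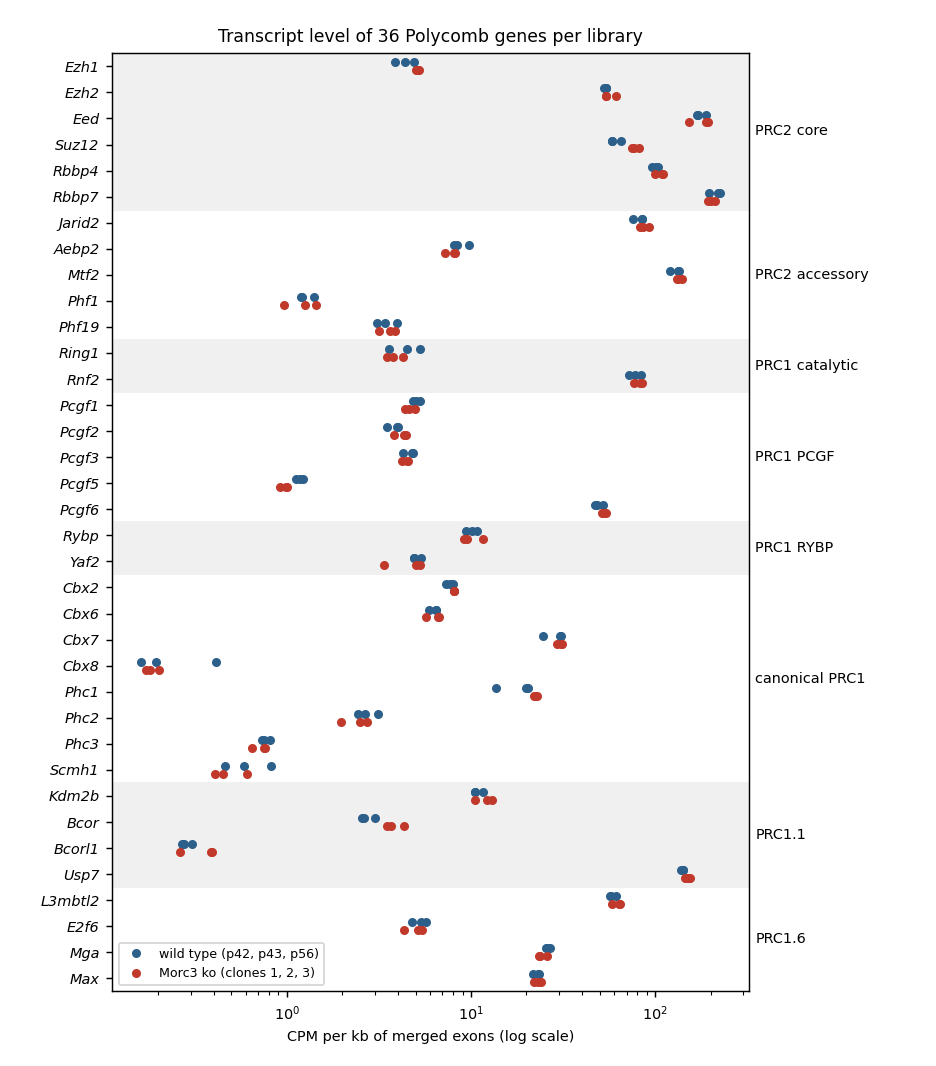
Transcript level per gene length (CPM per kb of merged exons, log axis) of the 36 Polycomb genes, ordered by complex, with 1 point for each of the 3 wild-type libraries (blue) and 3 ko libraries (red). The levels reach from Cbx8 at 0.221 to Rbbp7 at 208 CPM per kb on average, and the 2 groups of points overlap for all but 7 genes.

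To determine whether loss of Morc3 alters the expression of the Polycomb machinery, ko and wild-type libraries were compared across all genes with edgeR's quasi-likelihood test. None of the 36 genes was called at an adjusted p under 0.01. Of these genes 35 had enough counts for the test, and Cbx8, with 7 to 19 counts per library, did not. Across all tested genes 156 were called (1.28%), 105 of them higher and 51 lower in ko. At an unadjusted p under 0.05, edgeR found 4 of the 35 genes (11.4%), against 14.3% of all tested genes. These were Suz12, Bcor, Phc1 and Ezh1, and all 4 had the higher mean in ko. The 35 log2 fold changes lay between -0.36 for Scmh1 and 0.49 for Bcor, with 22 above and 13 below 0, and their median was 0.02, where that of all tested genes was -0.00010. DESeq2 called 1 of the genes, Suz12, and limma-voom called 0.

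The size of difference that these libraries leave room for was read from the 95% interval of each fold change. For 32 of the 35 genes (91.4%) this interval lay within a 1.5-fold change in either direction, as it did for 73.1% of all tested genes. The 3 genes with an interval reaching further were Bcor, Bcorl1 and Scmh1, of which the last 2 had under 3 CPM in every library. The median standard deviation of log2 CPM among the 35 genes was 0.0848 in ko and 0.0919 in wild type, against 0.107 and 0.12 over all tested genes. Intervals and standard deviations both depend on the counts of a gene, and the 35 genes were not compared with genes of like level. The 3 ko libraries lay above all 3 wild-type libraries for 6 genes (17.1%), namely Suz12, Ezh1, Cbx2, Phc1, Bcor and Usp7, where 9.67% of all tested genes did so. Pcgf5 alone (2.86%) had all ko libraries below wild type, against 10.2% of all tested genes.

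**Figure D2:**
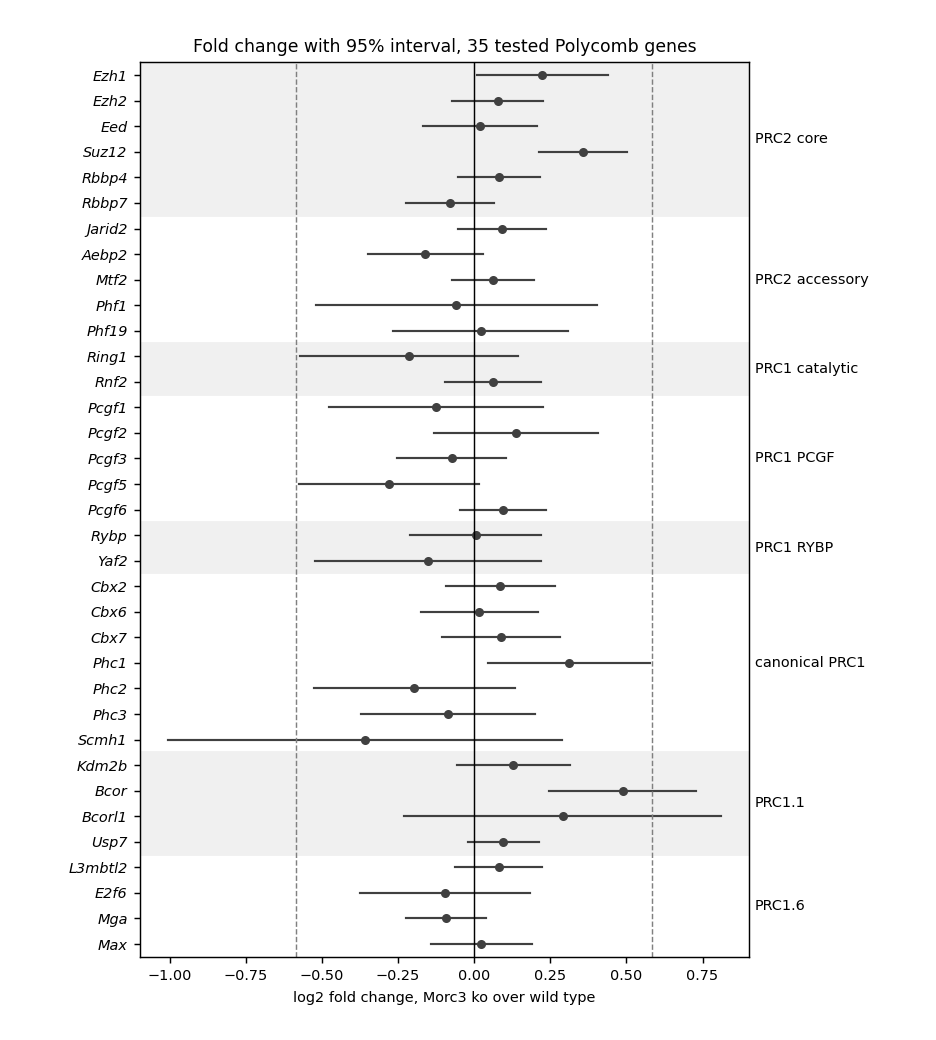
Log2 fold change of ko over wild type for the 35 tested Polycomb genes, with points for the estimate of edgeR and lines for the 95% interval. Dashed lines mark a 1.5-fold change, which only the intervals of Bcor, Bcorl1 and Scmh1 cross, and the intervals of Suz12, Bcor, Phc1 and Ezh1 leave out 0.

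Among the PRC2 core genes, Suz12 showed the smallest p of all 36 genes. Suz12 encodes the scaffold subunit that holds PRC2 together and is required for its activity (chromosome 11, 79993106 to 80034123, plus strand, GRCm38). It reached 326, 338 and 355 CPM in the ko clones and 255, 255 and 285 CPM in the wild-type cultures. Every ko clone was above every wild-type culture, and the nearest pair was clone 1 and p56. The mean was 339.8 ± 14.9 CPM in ko and 265 ± 17.3 CPM in wild type (SD, n = 3), a difference of 28.1% with a 95% interval of 16.01% to 41.5%. The edgeR adjusted p was 0.0119, so that its log2 fold change of 0.36 (SE 0.066) missed the threshold of 0.01. The call depended on the setting. Suz12 passed the threshold in DESeq2 (adjusted p 2.5e-04) and in edgeR with upper-quartile scaling, without a count filter, with a robust fit or without p56, while the log2 fold change remained between 0.33 and 0.41 in all settings. The adjusted p lay between 1.1e-04 without p56 and 0.0934 without clone 3 by edgeR.

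The 250 bases upstream of the Suz12 start are shown because Suz12 had the smallest p of the 36 genes, with matches to TCCCGC, a core of E2F binding sites, in capitals (chr11:79992856-79993105, plus strand, GRCm38.p6, from RefSeq, written 5′ to 3′ on the strand of the gene). The matches begin 217 and 70 bases before the start, and the stretch holds 37 CpG dinucleotides.
Suz12: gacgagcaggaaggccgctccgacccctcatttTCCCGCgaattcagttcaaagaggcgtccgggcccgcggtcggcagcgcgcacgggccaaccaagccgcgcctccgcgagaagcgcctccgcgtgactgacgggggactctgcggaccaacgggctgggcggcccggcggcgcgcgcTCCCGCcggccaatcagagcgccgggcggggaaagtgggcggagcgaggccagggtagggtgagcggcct

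The other core genes of PRC2 had smaller differences in mean or overlapping groups. Ezh2, the main H3K27 methyltransferase of proliferating cells, reached 151, 151 and 172 CPM in ko and 147, 151 and 151 CPM in wild type, where clone 3 was the highest and the other 5 libraries were nearly equal. The difference of 5.47% had a 95% interval of -4.89% to 16.96% and an edgeR adjusted p of 0.695. Ezh1, the less active paralog, reached 31.8, 31.2 and 30.6 CPM in ko and 26.8, 29.7 and 23.5 CPM in wild type. The groups did not overlap, but p43 came within 1 CPM of the ko clones and p56 was the lowest. Its edgeR adjusted p was 0.329, and the log2 fold change of 0.22 (SE 0.10) became 0.14 without p56. Eed reached 318, 389.6 and 398 CPM in ko and 348, 353 and 391 CPM in wild type, so clone 1 was the lowest of the 6 libraries and clone 3 the highest. Its log2 fold change was 0.02 (95% interval -0.17 to 0.20), with an edgeR adjusted p of 0.956, and turned negative in 5 of the settings. Rbbp4 and Rbbp7 had log2 fold changes of 0.08 and -0.08 with edgeR adjusted p-values of 0.625 and 0.677. The summed level of the 6 core genes was 1719 to 1938 CPM in ko and 1731 to 1767 CPM in wild type.

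The accessory subunits decide where PRC2 binds. Aebp2, which accompanies Jarid2, had 66.4, 59.2 and 66.3 CPM in ko and 68.2, 66.4 and 80.1 CPM in wild type. Culture p56 was the highest library and clone 2 the lowest, with an edgeR adjusted p of 0.450 for a log2 fold change of -0.16 (SE 0.087) that became -0.071 without p56. Mtf2 reached 544, 534 and 569.5 CPM in ko and 538, 491 and 549 CPM in wild type with overlapping groups, a difference of 4.41% (95% interval -4.85% to 14.6%). Jarid2 had a log2 fold change of 0.09 (95% interval -0.05 to 0.24) and Phf19 one of 0.02 (95% interval -0.27 to 0.31). Phf1, a homolog of Mtf2, was weakly expressed with 3.33, 3.80 and 2.54 CPM in ko and 3.19, 3.71 and 3.17 CPM in wild type, and its interval on the log2 scale was accordingly wide (-0.52 to 0.40).

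The 2 genes of the catalytic RING proteins overlapped between the groups. Rnf2, which encodes the main H2A ubiquitin ligase of ES cells, reached 256, 276 and 285 CPM in ko and 261, 241 and 282 CPM in wild type, a difference of 4.37% with a 95% interval of -6.35% to 16.3%. Ring1, its paralog, had 7.67, 8.65 and 7.08 CPM in ko and 7.31, 10.7 and 9.11 CPM in wild type, and its edgeR adjusted p was 0.635 at a log2 fold change of -0.21 (SE 0.16), which lay between -0.34 without p42 and -0.072 without p43. The PCGF genes decide which PRC1 is formed. Pcgf5, a partner of variant PRC1, was the gene with ko below wild type in every library, with 6.75, 6.71 and 6.17 CPM in ko and 8.26, 7.98 and 7.57 CPM in wild type. The difference of -17.6% had a 95% interval of -32.9% to 1.19% and an edgeR adjusted p of 0.385. Pcgf1, Pcgf2 and Pcgf3 had log2 fold changes of -0.12, 0.14 and -0.07, with edgeR adjusted p-values of 0.797, 0.697 and 0.750. Rybp, which stimulates the ligase activity of variant PRC1, had 43.1, 41.4 and 52.5 CPM in ko and 48.3, 42.4 and 45.8 CPM in wild type, with clone 3 the highest and a log2 fold change near 0 (95% interval -0.21 to 0.22). Its paralog Yaf2 had 8.87, 8.39 and 5.63 CPM in ko and 8.18, 8.96 and 8.26 CPM in wild type, with clone 3 the lowest and a log2 fold change of -0.15 (95% interval -0.52 to 0.22).

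In canonical PRC1, the PHC gene Phc1 stood out by a single wild-type library. Phc1 encodes a polyhomeotic protein whose polymers bring PRC1 sites together (chromosome 6, 122317731 to 122340227, minus strand, GRCm38). It reached 95.1, 98.6 and 96.3 CPM in ko and 86.2, 88.1 and 59.3 CPM in wild type. The ko clones were alike and lay above all wild-type cultures, and p56 was far below p42 and p43. The mean was 96.7 ± 1.79 CPM in ko and 77.9 ± 16.1 CPM in wild type (SD, n = 3). By edgeR the adjusted p was 0.260, with a log2 fold change of 0.31 (SE 0.12) that shrank to 0.15 when p56 was left out. Phc2 and Phc3 had log2 fold changes of -0.20 and -0.09, with edgeR adjusted p-values of 0.636 and 0.834.

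Cbx7, the main CBX protein of self-renewing ES cells, had 106, 100.3 and 105 CPM in ko and 104, 105 and 83.3 CPM in wild type. Here too p56 was the lowest library, and the log2 fold change was 0.09 (95% interval -0.11 to 0.28) with all libraries and -0.01 without p56. Cbx2 and Cbx6 had log2 fold changes of 0.09 (95% interval -0.09 to 0.27) and 0.02 (95% interval -0.18 to 0.21). Cbx8 had 0.647, 0.618 and 0.726 CPM in ko and 0.579, 0.700 and 1.47 CPM in wild type, with p56 the highest, and was not tested. Scmh1 had 2.03, 1.501 and 1.36 CPM in ko and 2.75, 1.96 and 1.54 CPM in wild type, and its log2 fold change of -0.36 had the widest interval of the 35 genes (-1.01 to 0.29).

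Bcor, a corepressor specific to PRC1.1, had the largest fold change of the 35 genes (chromosome X, 12036737 to 12160516, minus strand, GRCm38). It reached 24.7, 25.9 and 30.2 CPM in ko and 18.5, 21.2 and 17.8 CPM in wild type. All ko clones were above all wild-type cultures, and clone 3 was the highest. The mean was 26.9 ± 2.92 CPM in ko and 19.2 ± 1.80 CPM in wild type (SD, n = 3), a difference of 40.3% with a 95% interval of 18.6% to 65.8%. At an edgeR adjusted p of 0.0378 the log2 fold change of 0.49 (SE 0.11) missed the threshold of 0.01, as it did in every other setting. Bcorl1, its paralog, was hardly expressed, with 2.96, 2.91 and 2.00 CPM in ko and 2.03, 2.31 and 2.08 CPM in wild type. Its log2 fold change of 0.29 had a 95% interval of -0.23 to 0.81. Usp7 reached 713, 739 and 754 CPM in ko and 689.8, 679 and 695 CPM in wild type, a separation by a small step, since the difference was 6.89% (95% interval -1.37% to 15.9%) with an edgeR adjusted p of 0.463. Kdm2b had a log2 fold change of 0.13 (95% interval -0.06 to 0.32) with overlapping groups.

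The genes of PRC1.6 were followed one by one, since this complex acts on germ line genes. Pcgf6, the PCGF protein that defines PRC1.6, reached 111, 116 and 113 CPM in ko and 102, 104 and 112 CPM in wild type, where p56 lay among the ko clones. The difference of 6.84% had a 95% interval of -3.15% to 17.9% and an edgeR adjusted p of 0.577. L3mbtl2, a methyl-lysine reader of the complex, reached 203, 225 and 222 CPM in ko and 201, 215 and 198 CPM in wild type with overlapping groups, a difference of 5.77% (95% interval -4.16% to 16.7%, edgeR adjusted p 0.660). Mga, a very large protein with a T-box and a helix-loop-helix domain, reached 332, 327 and 359.6 CPM in ko and 354, 359.8 and 372 CPM in wild type. Clone 3 lay between p42 and p43, and the difference was -6.20% (95% interval -14.3% to 2.68%, edgeR adjusted p 0.550). Max, which pairs with Mga and with other factors such as Myc on E-boxes, had 43.2, 47.1 and 45.5 CPM in ko and 42.5, 45.9 and 45.2 CPM in wild type, a difference of 1.63% (95% interval -9.35% to 13.95%). E2f6, a repressive member of the E2F family, was weakly expressed with 13.03, 10.4 and 12.4 CPM in ko and 11.6, 13.02 and 13.7 CPM in wild type, a difference of -6.47% (95% interval -22.9% to 13.5%, edgeR adjusted p 0.804). Of the 4 genes listed for PRC1.6 beside Pcgf6, none was called, 2 had a higher and 2 a lower mean in ko, and their median log2 fold change was -0.03.

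**Figure D3:**
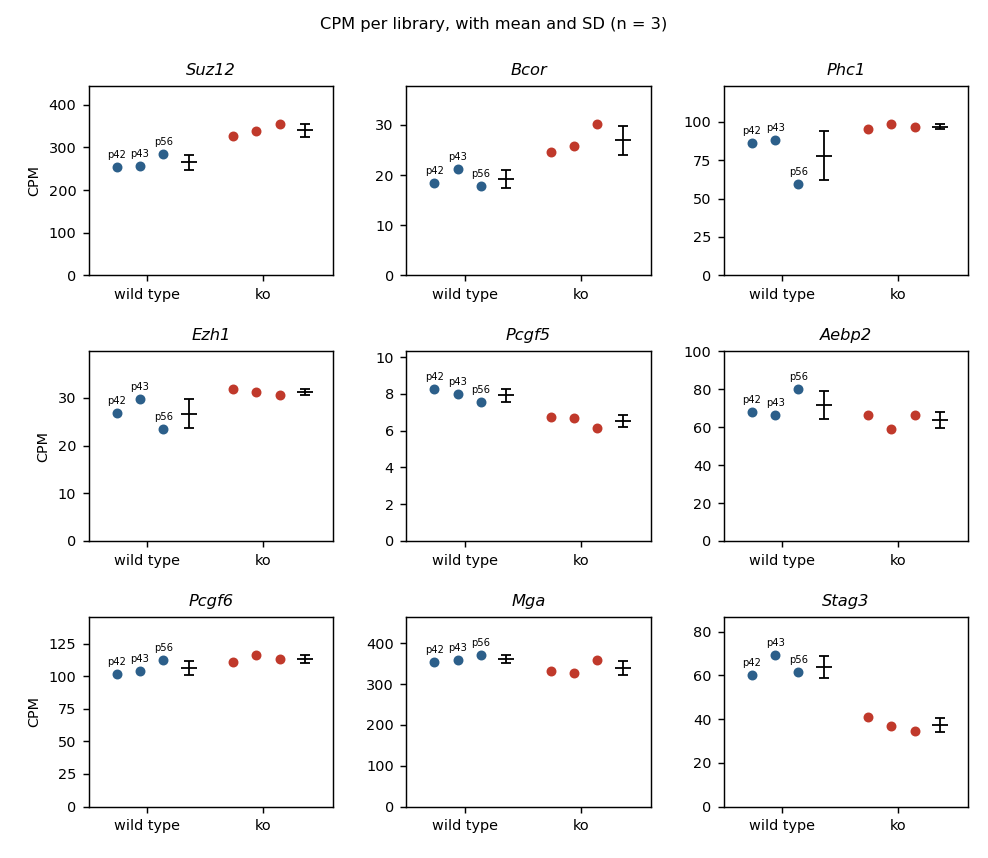
CPM in each library of the 6 Polycomb genes with the smallest p, of Pcgf6 and Mga of PRC1.6, and of the germ line gene Stag3, with wild type in blue, ko in red and bars for mean and SD (n = 3), each axis starting at 0. Suz12 averages 265 ± 17.3 CPM in wild type and 339.8 ± 14.9 CPM in ko without overlap, the low wild-type mean of Phc1 rests on p56, and Stag3 is the only gene shown that was called.

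The composition of the complexes was then compared between the groups by the share of each paralog in the summed per-length level of its family. These shares are a description, since 3 libraries against 3 cannot reach an exact p below 0.1. Ezh2 held 92.0% of the Ezh family, Rnf2 95.04% of the RING pair and Mtf2 96.5% of the family with Phf1 and Phf19, as means over the 6 libraries. Pcgf6 held 76.2% of the PCGF family, in which Bmi1, another PCGF gene that is not among the 36, was included. Cbx7 held 67.2% of the summed level of the 4 CBX genes among the 36, with Cbx2 at 17.95%, Cbx6 at 14.4% and Cbx8 at 0.514%. Bcor held 91.1% against Bcorl1, and Rybp 67.8% against Yaf2. By group means, the order of the paralogs within each family was that of wild type in ko as well.

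The largest shift in share was that of Phc1, which held 86.3%, 87.9% and 89.1% of the PHC family in ko and 85.2%, 84.0% and 81.3% in wild type. Culture p56, which had the lowest Phc1 level, also had the lowest share, and the nearest pair was clone 1 and p42. All ko values were above all wild-type values, with means of 87.8% ± 1.41 and 83.5% ± 2.00 (SD, n = 3), and the shares of Phc2 and Phc3 were accordingly lower in ko. Pcgf6 took 77.2% ± 1.07 in ko and 75.1% ± 1.17 in wild type (SD, n = 3) with overlapping values. The shares of Pcgf1, Pcgf3 and Pcgf5 did not overlap and were each lower in ko by less than 1 percentage point. Shares within a family depend on each other, so these are not separate observations, and no rate over all genes was available for them. In CPM, Pcgf1 and Pcgf3 overlapped between the groups. The share of Rybp was 77.6% in clone 3 and 63.8% to 68.7% in the other 5 libraries.

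**Figure D4:**
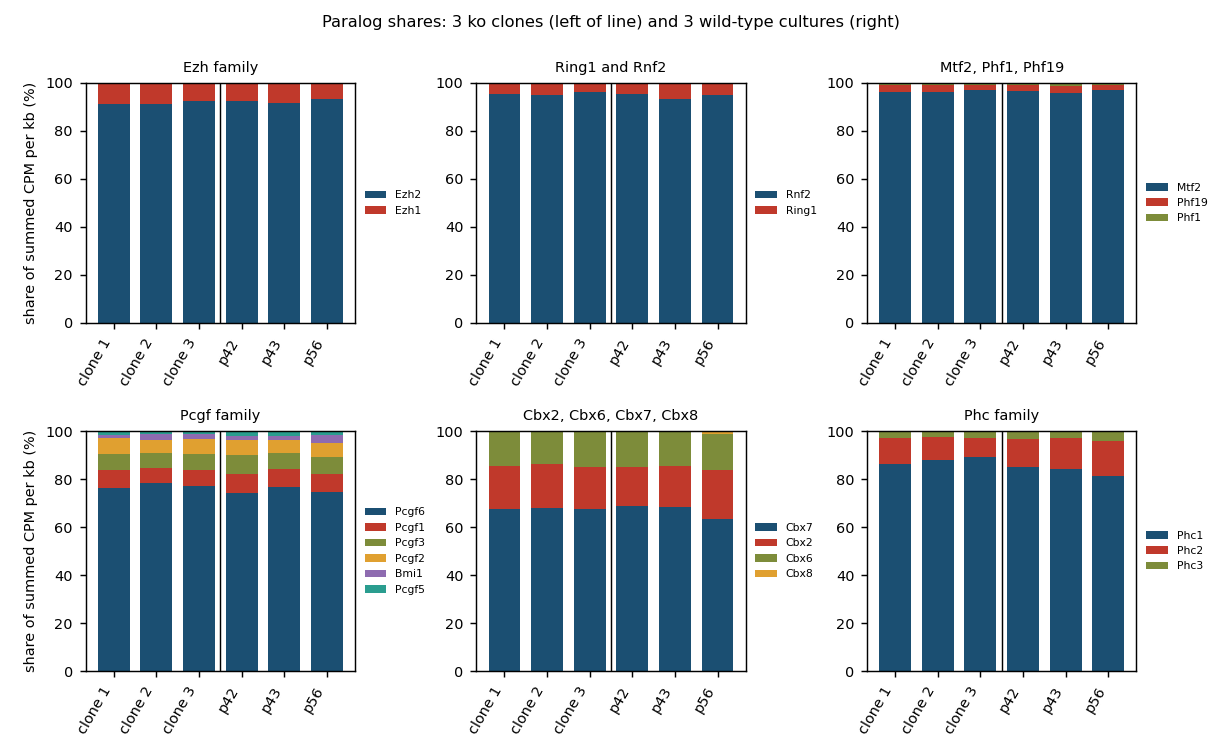
Share of each paralog in the summed CPM per kb of its family or of the genes in the panel title (percent, stacked bars from 0 to 100) in the 3 ko clones and the 3 wild-type cultures, for 6 families. Ezh2, Rnf2, Mtf2, Pcgf6, Cbx7 and Phc1 hold the largest share in every library. Phc1 is higher in each ko clone (86.3% to 89.1%) than in each wild-type culture (81.3% to 85.2%, with p56 the lowest).

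Wild-type p56 was compared with the other libraries, because it decided several of these values. It lay outside the range of the other 5 libraries in 12 of the 35 tested genes (34.3%), above it in 4 and below it in 8, and in 49.6% of all tested genes. The lowest value of p56 against the mean of p42 and p43 among the tested genes was that of Phc1, with a log2 ratio of -0.55, followed by Scmh1 with -0.48 and Cbx7 with -0.33. The 8 genes below all other libraries in p56 were Phc1, Cbx7, Ezh1, Jarid2, Phf19, Kdm2b, Bcor and L3mbtl2, and the 4 above were Aebp2, Pcgf1, E2f6 and Mga. Without p56 the 35 genes had a median log2 fold change of 0.04.

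The question was extended to 23 other proteins that work with the complexes, of which 21 had a row and 20 were tested. None was called by edgeR or limma-voom, 2 of the 20 (10%) had an unadjusted p under 0.05 by edgeR, against 14.3% of all tested genes, and the median log2 fold change was 0.05. The smallest p belonged to Sfmbt2, an imprinted gene for a methyl-lysine reader related to L3mbtl2, with 71.8, 69.4 and 59.2 CPM in ko and 111, 101 and 78.8 CPM in wild type. Every ko clone was below every wild-type culture, with an edgeR adjusted p of 0.0302 at a log2 fold change of -0.54 (SE 0.12). Sfmbt2 was called by DESeq2 (adjusted p 7.4e-04), by edgeR without a count filter and by edgeR without p56, and its adjusted p lay between 4.3e-06 without p56 and 0.214 without clone 3 by edgeR. Its relative Sfmbt1 had 16.3, 17.5 and 16.97 CPM in ko and 20.4, 18.3 and 29.1 CPM in wild type, with p56 far above the rest, and an edgeR adjusted p of 0.236. The histone deacetylase Hdac2 had a log2 fold change of 0.15 with an edgeR adjusted p of 0.359. Of 8 enzymes that remove the marks of Polycomb or assist in it, none was called by edgeR, DESeq2 or limma-voom, and 2 (25%) had an unadjusted p under 0.05 by edgeR, against 14.3% of all tested genes. Bap1, which takes ubiquitin off H2A, had 140.4, 142 and 132 CPM in ko and 149.6, 159.6 and 170.4 CPM in wild type, without overlap, and its log2 fold change was -0.21 (SE 0.068, edgeR adjusted p 0.164). Kdm6b, an H3K27 demethylase, had 5.91, 6.62 and 6.26 CPM in ko and 4.20, 5.81 and 2.32 CPM in wild type (edgeR adjusted p 0.315), and Asxl2, a partner of Bap1, had a log2 fold change of 0.13 (edgeR adjusted p 0.489).

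Genes known to be silenced by Polycomb complexes were examined as a readout. Of 45 developmental regulators, 9 had no count in any library, none exceeded 2.17 CPM in any library, and 4 passed the count filter. These were Gata4, Cdkn2a, Sox1 and Eomes. None was called by edgeR, DESeq2 or limma-voom, and 0 had an unadjusted p under 0.05 by any of these tools. Gata4, a transcription factor of endoderm and heart, had 0.924, 0.530 and 0.454 CPM in ko and 1.23, 1.33 and 0.772 CPM in wild type with overlapping groups, and an edgeR adjusted p of 0.395. Sox1, a factor of neural progenitors, had 1.39, 1.06 and 1.18 CPM in ko and 1.67, 1.47 and 1.93 CPM in wild type without overlap, and an edgeR adjusted p of 0.495. Cdkn2a, a cell cycle inhibitor, had an edgeR adjusted p of 0.477. All 4 had a lower mean in ko, but genes this close to the filter can pass it through the group where they are high. The median log2 fold change of the list was -0.56 over these 4 genes, 0.15 over 36 genes without the filter and -0.93 over 5 genes without p56. These medians cover different genes and cannot be compared directly. In bulk RNA, fewer cells expressing such a gene and less RNA per cell cannot be told apart.

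Germ line genes listed as targets of PRC1.6 comprised 22 symbols, of which 21 had a row and 17 were tested. Stag3, a cohesin subunit of meiosis, was called lower in ko, and none was called higher. It reached 40.9, 36.8 and 34.5 CPM in ko and 60.04, 69.4 and 61.5 CPM in wild type (chromosome 5, 138272514 to 138312397, plus strand, GRCm38). The lowest wild-type culture lay far above the highest ko clone, and edgeR gave an adjusted p of 4.7e-04 to the log2 fold change of -0.77 (SE 0.089). Stag3 was called in every setting. Ddx4, an RNA helicase of germ cells, had 20.3, 19.2 and 20.8 CPM in ko and 27.9, 29.5 and 41.5 CPM in wild type, with p56 the highest (log2 fold change -0.71, edgeR adjusted p 0.0182). Mov10l1, a helicase of the piRNA pathway, had 3.88, 4.68 and 3.99 CPM in ko and 6.95, 7.07 and 11.04 CPM in wild type, again with p56 the highest (log2 fold change -0.99, edgeR adjusted p 0.0265). At an unadjusted p under 0.05, edgeR found 11 of the 17 genes, 8 of them lower and 3 higher in ko, against 14.3% of all tested genes. DESeq2 called Stag3, Ddx4 and Mov10l1. The groups did not overlap for 8 of the 17, with ko lower in 7 and higher in 1 (Hsf2bp), against 10.2% and 9.67% of all tested genes. The median log2 fold change was -0.48 and lay between -0.71 and -0.32 over the settings. This list was chosen with earlier results of these data known, so its shares and median are a description. No test was run over the list. Several of these genes are near the count filter and can pass it through the group where they are high. The summed level of the list was 241 to 249.8 CPM in ko, 265 and 287 CPM in p42 and p43 and 349.7 CPM in p56. The part of p56 in the list was not tested, and without p56 the log2 fold changes were -0.79 for Stag3, -0.51 for Ddx4 and -0.74 for Mov10l1.

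**Figure D5:**
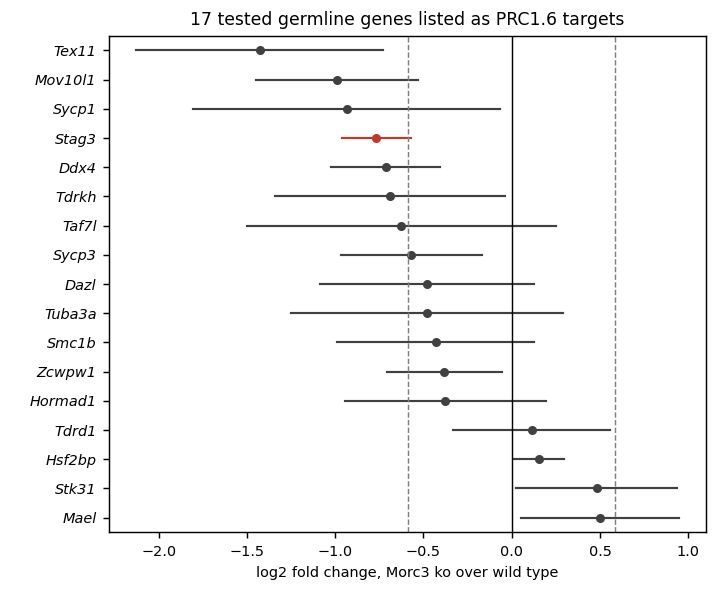
Log2 fold change of ko over wild type for the 17 tested germ line genes, with points for the estimate of edgeR and lines for the 95% interval, in red where the gene was called and with dashed lines at a 1.5-fold change. Stag3 is the single called gene, 13 estimates lie below 0 and 4 above.

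The promoters of these genes were searched on both strands for 3 motifs bound by PRC1.6 factors. The motifs were CACGTG (the E-box of Mga and Max), TCCCGC (the core of E2F sites) and AGGTGT (the T-box core), and matches of different motifs can share at most 1 base. The search covered the 250 bases before each start in RefSeq (GRCm38.p6). CACGTG was found in 52.4% of the 21 germ line genes matched, in 21.9% of the 32 Polycomb genes matched and in 10.4% of 9147 tested genes. The germ line genes matched to a promoter are not the same 21 as those with counts. They include Meioc, which had no count row, and some untested genes, and they leave out the tested gene Tex11. TCCCGC was found in 42.9%, 40.6% and 35.6% and AGGTGT in 19.0%, 6.25% and 11.4% of the same sets. Over all 27025 genes with a promoter, tested or not, the shares of genes were 6.86% for CACGTG, 18.8% for TCCCGC and 13.6% for AGGTGT. A match describes the letters of the window and not a bound site, and binding was not analysed here.

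The upstream stretches of the 3 germ line genes with the smallest p are shown with their matches in capitals, each 5′ to 3′ on the strand of the gene (GRCm38.p6, RefSeq). All 3 had a lower mean in ko. CACGTG was also found upstream of listed genes with a higher mean in ko, such as Mael and Stk31, and with a lower one, such as Sycp3 and Hormad1. Whether the motif goes with the fold change was not tested. The starts used for Stag3, Ddx4 and Mov10l1 all lie inside the RefSeq spans of these genes, of which that of Stag3 is given above. Stag3 (chr5:138280259-138280508, plus strand) has CACGTG beginning 170 bases before the start, Ddx4 (chr13:112652311-112652560, minus strand) has it 29 bases before the start together with a TCCCGC read on the opposite strand at 136 bases, and Mov10l1 (chr15:88982744-88982993, plus strand) has it 246 bases before the start.
Stag3: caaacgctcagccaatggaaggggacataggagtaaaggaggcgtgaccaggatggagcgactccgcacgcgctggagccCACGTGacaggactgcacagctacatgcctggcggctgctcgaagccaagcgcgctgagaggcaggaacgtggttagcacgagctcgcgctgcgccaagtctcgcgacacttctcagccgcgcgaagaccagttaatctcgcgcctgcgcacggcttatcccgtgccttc
Ddx4: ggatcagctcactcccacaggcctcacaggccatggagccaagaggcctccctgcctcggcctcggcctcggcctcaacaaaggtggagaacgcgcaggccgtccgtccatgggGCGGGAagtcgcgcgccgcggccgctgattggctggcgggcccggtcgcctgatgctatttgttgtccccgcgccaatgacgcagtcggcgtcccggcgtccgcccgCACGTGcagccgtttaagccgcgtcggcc
Mov10l1: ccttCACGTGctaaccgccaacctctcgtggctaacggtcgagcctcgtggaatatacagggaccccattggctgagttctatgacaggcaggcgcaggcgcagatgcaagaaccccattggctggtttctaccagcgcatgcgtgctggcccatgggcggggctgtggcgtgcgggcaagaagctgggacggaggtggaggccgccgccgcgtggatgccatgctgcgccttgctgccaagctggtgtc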

How the data were processed

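Total RNA was depleted of ribosomal RNA and made into strand-specific paired-end libraries. Per the labels and methods, the authors aligned reads to mm10 with STAR (the annotation is not given in the sources used here) and deposited raw counts per gene and library. Only reads mapping to 1 place are counted, so reads shared by near-identical copies are left out. Between 36.2% and 37.7% of reads fell on no single gene and were left out of library sizes. The authors tested with DESeq2.

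Sense-strand counts were tested here with edgeR 4.0.16 in R 4.3.3 (quasi-likelihood test, TMM, filterByExpr with a minimum count of 10 and total of 15, prior count 0.125, group as the only term). P-values are two-sided, adjusted by Benjamini-Hochberg over all tested genes and called under 0.01, the threshold of the study. SE is the log2 fold change divided by the root of F. They measure the spread between these cultures and clones. DESeq2 1.42.0, limma 3.58.1 (voom), other scalings, filters and strands, and leaving out each library were tried. Exon lengths came from GENCODE M21 and positions and promoters from RefSeq.

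Some genes of the lists are not reported here. The members and all lists were chosen with earlier results of these data known. Named genes are the PRC2 core, RING and PRC1.6 genes, members called in any setting, the 6 with the smallest p, the highest and lowest level per role, and in each other list the called genes and the 3 with the smallest p. Other genes are named for completeness. Scmh1, Jarid2, Kdm2b and Hsf2bp in the comparisons of libraries were chosen after their values were seen, as were Mael, Stk31, Sycp3 and Hormad1 beside the motif.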

Additional observations from a re-analysis of the deposited data

Results flagged for a closer look

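Counts on the strand opposite to a gene were not used in the comparisons. Of the 18 Polycomb genes with at least 10 such counts over the 6 libraries, 2 were higher in every ko library than in every wild-type library after scaling to the opposite-strand total, where 7.06% of all 4845 genes with as many counts were. Usp7 had 47 opposite-strand counts over the 3 ko libraries and 41 over the 3 wild-type libraries, together 0.167% of its counts on both strands. Kdm2b had 13 in ko and 6 in wild type. L3mbtl2, with 4 in ko and 17 in wild type, was lower in every ko library, as were 4.73% of those genes. Cbx2 was also higher in every ko library, but with 5 counts in all. These differences were not tested.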

How the results depend on the processing

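No paired analysis was possible because no replicate number in the labels is shared between the ko and wild-type libraries. The 156 called genes became 286 without a count filter, 254 with DESeq2 and 331 at an adjusted p under 0.05, and lay between 72 and 385 when 1 library was left out, with 385 without p56 and 72 without clone 3. The number of called Polycomb genes went from 0 to 1 (Suz12) with upper-quartile scaling, without a count filter, with DESeq2 and with the robust fit, to 2 (Suz12 and Bcor) at an adjusted p under 0.05, and lay between 0 and 1 when 1 library was left out. Signs were followed over the settings for the genes named by rule and not for those named for completeness. The log2 fold changes that turned their sign were not called in any setting. In the main fit they lay between -0.15 for Yaf2 and 0.09 for Cbx7. For Eed the log2 fold change was -0.0055 with library size only. For Rybp it was -0.0096 with upper-quartile scaling, -0.018 with library size only and -0.00035 with limma-voom. Leaving out 1 library gave -0.039 to 0.12 for Eed, -0.0065 to 0.059 for Max, -0.19 to 0.088 for Phf1, -0.10 to 0.073 for Rybp, -0.27 to 0.029 for Yaf2 and -0.013 to 0.15 for Cbx7. The cause was not tested. Of all values recomputed under these settings 951 kept their direction and side of the threshold or moved by less than the spread, 18 passed the threshold of 0.01 that they had missed, 6 passed the wider threshold of 0.05 at an unaltered p, and 6 no longer passed theirs. Of the last 6, 5 belong to Thy1, whose edgeR adjusted p rose to between 0.0181 and 0.0583 without any of the 3 ko clones, p42 or p43. The median of the 35 Polycomb genes lay between 0.00054 and 0.074. At this depth the 95% intervals of the weakly expressed Bcorl1 and Scmh1 leave room for changes beyond 1.5-fold.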
